A study of Mus musculus with 6 samples.

Results

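Krt10, Lor and Klk7 are 3 genes of keratinized epithelium that the study listed as down-regulated in the noise damaged mouse cochlea after treatment with mesenchymal stromal cells (MSC). They were taken by symbol from the 2741 down-regulated entries and joined by identifier to the table of 41096 genes, so they are 3 of 41096. The measured difference between the treatments chose them, and their levels are therefore given as a description with no test. RNA sequencing was performed on the left cochlea of 6 mice whose strain is labelled C56Bl/6 and is C57BL/6 in the methods. The 3 sound trauma animals (specimens 6, 8 and 10) were exposed for 4 h to noise at 16 kHz. The study's abstract calls this noise narrow band, and its methods call it a pure tone. The 3 MSC treated animals (specimens 13, 18 and 20) had the same noise and then received human MSCs from the Wharton's jelly of the umbilical cord. The mice were 4 weeks old, and treatment was given 48 h after the noise. The RNA was collected 2 days after treatment in the labels and 72 h after it in the methods. The methods give the sound trauma animals artificial perilymph in place of cells, whereas the labels name noise alone. The methods give 5 animals per group, and 3 libraries per group were analysed here. No group without noise was analysed here.

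Keratinocytes leave the basal layer of a stratified epithelium and switch from basal keratins to the suprabasal pair keratin 1 and keratin 10 as they move outwards. In the outermost living layers they assemble loricrin and related proteins into the cornified envelope, a crosslinked protein shell under the cell membrane. Kallikrein proteases, held in check by the inhibitor encoded by Spink5, then cut the desmosomes between cornified cells so that the cells can be shed. Within the ear this programme is known from the skin of the ear canal and the outer face of the eardrum. The supporting cells of the cochlea carry simple epithelial keratins instead.

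The promoters of the 3 genes are printed because the genes share a single high library, described below, and lie on 3 chromosomes. Each is the 250 bases before the start in RefSeq, GRCm38.p6, written 5' to 3' on the strand of the gene, with capitals for matches to the TATA box letters TATAAA and the AP-1 letters TGANTCA. Krt10 lies at chr11:99389365-99389614 on the minus strand, Lor at chr3:92083143-92083392 on the minus strand and Klk7 at chr7:43811044-43811293 on the plus strand.
Krt10: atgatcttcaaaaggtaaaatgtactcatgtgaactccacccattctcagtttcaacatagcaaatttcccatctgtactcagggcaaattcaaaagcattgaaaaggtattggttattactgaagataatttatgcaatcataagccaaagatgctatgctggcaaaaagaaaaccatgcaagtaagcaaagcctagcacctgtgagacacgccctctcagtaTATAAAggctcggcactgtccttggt
Lor: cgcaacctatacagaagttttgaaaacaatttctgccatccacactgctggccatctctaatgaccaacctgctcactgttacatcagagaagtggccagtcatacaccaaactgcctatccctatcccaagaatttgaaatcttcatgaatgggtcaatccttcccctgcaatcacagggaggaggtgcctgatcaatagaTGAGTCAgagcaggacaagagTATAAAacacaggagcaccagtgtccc
Klk7: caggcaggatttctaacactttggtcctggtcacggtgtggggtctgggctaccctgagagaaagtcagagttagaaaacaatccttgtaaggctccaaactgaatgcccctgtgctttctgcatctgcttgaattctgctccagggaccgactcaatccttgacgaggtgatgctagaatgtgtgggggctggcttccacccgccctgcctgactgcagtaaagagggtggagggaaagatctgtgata

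Krt10 and Lor shared a TATA box at nearly the same place, from 26 to 21 bases before the start of Krt10 and from 27 to 22 bases before the start of Lor. The Klk7 window held no TATAAA on either strand. An AP-1 match was found only in Lor among the 3, at 48 to 42 bases before the start. Of 32851 promoter windows of the same length, 12.4% held TATAAA and 6.75% held TGANTCA, with both strands searched here and for the motifs that follow. The KLF letters CACCC were found in Krt10 (213 to 209 bases before the start) and in Klk7 (52 to 48 bases on its own strand, and 24 to 20 bases on the other), and 52.0% of windows held them. CCAAT was found in Krt10, on the other strand at 141 to 137 bases, as in 33.8% of windows. The grainyhead-like letters AACNNGTT were found in none of the 3 windows and in 3.64% of all windows. These are matches of letters only.

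The deposited values were read counts multiplied by 1 factor for each library, so that whole reads could be recovered from them. Between 9170390 and 11030863 reads on genes were recovered per library, and 1 read was worth 0.893 to 1.16 on the scaled count. A total of 25369 genes had at least 1 read, and 15970 passed the expression filter. Krt10 and Lor passed it, and Klk7 did not. The libraries differed in other tissues as well. Reads were concentrated most in sound trauma specimen 6, whose top 20 genes held 14.8% of them, and least in sound trauma specimen 8, whose top 20 genes held 5.39%. Sound trauma specimen 8 also stood apart in 74 genes that were at least 8 times as high there as in each other library, compared with 25 genes for specimen 6 and 1 to 9 genes for the other 4. Results that rest on specimen 8 are given with and without it below.

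All 3 genes were abundant in sound trauma specimen 8 and scarce in the other 5 libraries. Krt10, which encodes the type I keratin of suprabasal keratinocytes (MGP_C57BL6NJ_G0019484), reached a scaled count of 35.9 in specimen 6, 399.6 in specimen 8 and 22.3 in specimen 10 among the sound trauma animals. Among the MSC treated animals it reached 19.7 in specimen 13, 12.3 in specimen 18 and 21.4 in specimen 20. These scaled counts correspond to 31, 418 and 25 reads and to 19, 12 and 22 reads. Specimen 8 was 11.1-fold above specimen 6, the library next in order, and the other 5 libraries held 12 to 31 reads each. The order from high to low was specimens 8, 6, 10, 20, 13 and 18, and below specimen 8 the 95% exact Poisson intervals of neighbours in this order overlapped.

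Lor encodes loricrin, the main structural protein of the cornified envelope (MGP_C57BL6NJ_G0027904). Specimens 6, 8 and 10 of the sound trauma group had scaled counts of 11.6, 339 and 7.15, from 10, 355 and 8 reads. Specimens 13, 18 and 20 of the MSC treated group had 6.23, 14.3 and 11.6, from 6, 14 and 12 reads. Specimen 8 was 23.7-fold above specimen 18, which was next in order and belongs to the other group. The other 2 sound trauma animals lay inside the range of the MSC treated animals.

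Klk7 encodes kallikrein 7, a chymotrypsin-like protease that cleaves corneodesmosomes (MGP_C57BL6NJ_G0032618). It had 162 reads in sound trauma specimen 8, a scaled count of 155, and 1 read or none elsewhere. Specimens 10 and 20 had 1 read each, a scaled count of 0.893 and 0.971, and specimens 6, 13 and 18 had 0 reads, where a count of 0 allows up to 3 reads (scaled counts of up to 3.48, 3.12 and 3.06). Presence of Klk7 in the other libraries was therefore not detectable beyond single reads at this depth.

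**Figure D1:**
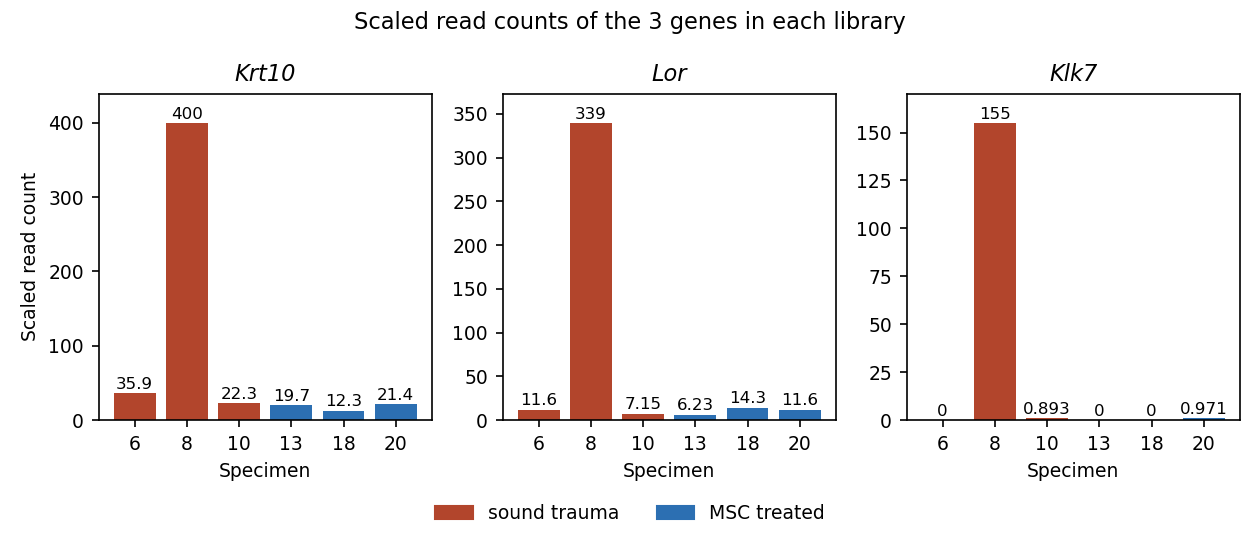
Scaled read counts (y axis, 1 scale per panel) of Krt10, Lor and Klk7 in the 6 libraries (x axis, specimen number), with sound trauma in red and MSC treated in blue. Specimen 8 stands at 399.6, 339 and 155, and no other bar passes 35.9.

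Specimen 8 held 79.3% of all Krt10 reads (95% Wilson interval 75.7% to 82.6%), 87.7% of all Lor reads (84.1% to 90.5%) and 98.8% of all Klk7 reads (95.7% to 99.7%). Relative to the total reads on genes, specimen 8 was above the other 5 libraries together 19.0-fold for Krt10 (exact 95% interval 15.4 to 23.7), 35.2-fold for Lor (26.1 to 48.3) and 401-fold for Klk7 (109 to 3342). All of these intervals cover counting error only, and they compare libraries and not treatments. No molecular identifiers are named in the sources used here, and duplicate reads could not be told apart in the counts.

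The group means had large errors because a single animal set the sound trauma mean. The mean scaled count of Krt10 was 153 ± 214 in sound trauma and 17.8 ± 4.86 in MSC treated cochleae (SD, n = 3 each). The mean of Lor was 119 ± 191 compared with 10.7 ± 4.11, and that of Klk7 was 51.9 ± 89.2 compared with 0.324 ± 0.560. In each case the SD of the sound trauma group exceeded its mean. On the log2(scaled count + 1) scale, MSC treated minus sound trauma was -1.94 ± 1.29 (SE) for Krt10, -1.55 ± 1.73 for Lor and -2.41 ± 2.31 for Klk7. Without specimen 8 the same difference was -0.68 ± 0.39 for Krt10, 0.14 ± 0.48 for Lor and -0.13 ± 0.54 for Klk7, so that the lower level of Lor in the MSC treated group was lost. The Klk7 difference also depends on the pseudocount. In reads, Klk7 had 163 in the sound trauma libraries together and 1 in the MSC treated libraries together, and 162 of the 163 came from specimen 8, which leaves 1 read against 1 without it.

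The separation of the groups was complete for Krt10 only. The lowest sound trauma value was 22.3 and the highest MSC treated value was 21.4, which is 25 reads in specimen 10 against 22 reads in specimen 20, and the order of these values held under the 3 other scalings of the libraries. For Lor and Klk7 the groups overlapped. Of 15970 genes tested, 2.92% had every sound trauma value above every MSC treated value. Across all tested genes, limma called 0% of genes at an adjusted p under 0.05, with 107 genes lower and 269 genes higher in MSC treated cochleae at an unadjusted p under 0.05. The edgeR quasi-likelihood test and DESeq2 also called 0 genes, with 266 and 550 genes lower and 259 and 249 genes higher at an unadjusted p under 0.05. All 3 of the genes were highest in specimen 8, compared with 28.4% of the 19879 genes with more than 3 reads in a library. All 3 were at least 8 times as high in specimen 8 as in every other library, compared with 0.372% of these genes, and this limit of 8 was chosen after the values had been seen. Since the genes were picked from this contrast, nothing is read from these counts beyond the description.

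Levels of different genes can be set side by side only per length of transcript. The authors' mean FPKM in sound trauma and MSC treated cochleae was 7.51 and 0.871 for Krt10, 6.97 and 0.629 for Lor, and 2.87 and 0.0181 for Klk7. On that scale Krt10 and Lor were at similar levels within each group, and Klk7 was the lowest of the 3 in both. These means carry no error, and the sound trauma means include specimen 8.

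Shares of reads within a library do not depend on how the libraries were scaled to each other. Lor made up 45.9% of the summed Lor and Krt10 reads in specimen 8 (95% Wilson interval 42.4% to 49.4%) and 31.4% (24.7% to 39.0%, 50 of 159 reads) in the other 5 libraries together, where it ranged from 24.0% to 53.8%. Klk7 made up 27.9% of the summed Klk7 and Krt10 reads in specimen 8 (24.4% to 31.7%, 162 of 580 reads), whereas it made up 1.80% (0.496% to 6.33%, 2 of 111 reads) in the other 5 libraries together. Against Lor, Klk7 made up 31.3% in specimen 8 and 3.85% (1.06% to 13.0%) in the others. The pooled shares of the other libraries rest on 2 Klk7 reads. Library by library, the intervals of the Klk7 share against Lor in specimens 6, 10, 13 and 20 overlapped that of specimen 8 (27.5% to 35.5%), whereas that of specimen 18 and all 5 against Krt10 did not. These intervals cover counting error only, and since Klk7 was already known to be high in specimen 8 alone, a gap was fixed beforehand and nothing is read from it. The other libraries had 3 or fewer Klk7 reads each, which is at the floor.

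The neighbouring programme was examined in 9 lists of epithelial genes that hold 88 genes, of which 36 carry a name in the deposited lists (34 as down-regulated and 2 as up-regulated). These 36 were selected by the study on the same animals, and the other listed genes were not analysed here, so the lists are no independent evidence of a direction. None of their genes was called by limma. Of the 34 down-regulated genes, 32 peaked in specimen 8, compared with 28.4% of all genes with more than 3 reads in a library. Selection as down-regulated favours a peak in a sound trauma library. The share among all down-regulated genes was not computed, so the count is a description only. A lower mean log2 level in MSC treated cochleae was seen in 32 of the 34, and in 20 of the 34 without specimen 8. Their median log2 difference was -1.25 with all libraries and -0.17 without specimen 8, compared with a median of 0.001 over all tested genes. Of the 36 named genes 17 passed the expression filter. In tissue RNA, fewer cells of a type and less RNA per cell cannot be told apart.

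Among the suprabasal keratins, 2 of 5 were named. Krt1, the type II partner of Krt10, had scaled counts of 6.95, 94.6 and 0 in the sound trauma group (in the order 6, 8 and 10, which is kept from here on) and of 0, 2.04 and 3.88 in the MSC treated group (13, 18 and 20). Like its partner it was high only in specimen 8, and the summed level of Krt1 and Krt10 was 494 there and 14.3 to 42.9 elsewhere.

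Of the cornified envelope precursors 6 of 25 were named, and all 6 were highest in specimen 8. Their summed level was 1129 in specimen 8 and 78.6 to 149 in the other libraries, and their median log2 difference of -1.40 became 0.07 without specimen 8. Cst6, which encodes the cysteine protease inhibitor cystatin M/E of the cornifying layers, was found in all libraries, with 82.3, 360.4 and 51.8 in the sound trauma group and 48.8, 35.7 and 62.1 in the MSC treated group. Calml3, a calmodulin-like protein of differentiating epithelium, had 1.16, 56.4 and 18.8 compared with 7.27, 19.4 and 4.85. Lce1m, a late cornified envelope gene, had 57 reads in specimen 8 and 0 reads in each of the other 5 libraries. Cnfn, which encodes cornifelin, had 34 reads in specimen 8 and 2 reads in all others together. Both genes had single-library patterns like that of Klk7.

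Sprr1a, a small proline-rich precursor of the envelope that keratinocytes also raise under stress and in wounds, differed from Lor. Its scaled counts were 5.79, 286 and 1.79 in the sound trauma group and 85.2, 9.19 and 7.77 in the MSC treated group, so that MSC treated specimen 13 also had a raised level. In specimen 13 Lor had 6.23, the lowest level of all libraries.

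The secreted keratinocyte proteins (2 of 3 named) showed the same single high library. Krtdap, the keratinocyte differentiation associated protein, had 153 reads in specimen 8 and 0 to 4 reads elsewhere. Dmkn, which encodes dermokine of the suprabasal layers, had a scaled count of 774 in specimen 8 and 54.5 to 97.3 in the other libraries.

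Of the desquamation proteases and inhibitors 6 of 12 were named and 5 were highest in specimen 8, with a summed level of 586 there and 36.4 to 70.7 elsewhere. Spink5, which encodes the inhibitor of kallikreins LEKTI, had scaled counts of 1.16, 181 and 0 in the sound trauma group and 2.08, 5.11 and 0.971 in the MSC treated group. The protease and its inhibitor were thus found in the same animal. Klk10 and Klk11, which lie near Klk7, had 38.2 and 29.6 in specimen 8, whereas the highest value elsewhere was 12.7 for Klk10 and 10.7 for Klk11. Serpinb11, a clade B serpin, had 156 in specimen 8 and 16.2 to 41.1 elsewhere. Serpinb1b, another clade B serpin, was highest in specimen 6, at 34.8, compared with 26.8 in specimen 8, 3.57 in specimen 10 and 0, 1.02 and 7.77 in the MSC treated group. It was the only named gene of this list whose highest library was not specimen 8, and its log2 difference was -2.67 with all libraries and -2.29 without specimen 8.

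The corneodesmosome genes (3 of 8 named) had a summed level of 272 in specimen 8 and 7.15 to 11.6 elsewhere. Cdsn, which encodes corneodesmosin, a substrate of kallikrein 7, had 6.95, 126 and 8.04 in the sound trauma group and 5.19, 4.09 and 4.85 in the MSC treated group. Dsc1, the desmocollin of the upper epidermis, had 49 reads in specimen 8 and 0 in each other library. Dsc3, the desmocollin of the lower layers, had a scaled count of 98.5 in specimen 8 and 2.32 to 5.19 elsewhere.

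The lipid barrier genes (5 of 8 named) were all highest in specimen 8, by 2.04-fold (Alox8) to 12.2-fold (Abca12) over the library next in order. Elovl4, an elongase for very long chain fatty acids that neurons and photoreceptors also use, had 123, 544 and 125 in the sound trauma group and 103, 185 and 164 in the MSC treated group. Aloxe3, the epidermal lipoxygenase eLOX3, had 20.9, 137 and 13.4 compared with 11.4, 24.5 and 24.3. Cyp4f39 and Alox8 had 35.4 each in specimen 8, and the highest value elsewhere was 16.1 for Cyp4f39 and 17.4 for Alox8. Abca12, the lipid transporter of lamellar granules, had 53 reads in specimen 8 and 0 to 4 elsewhere.

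**Figure D2:**
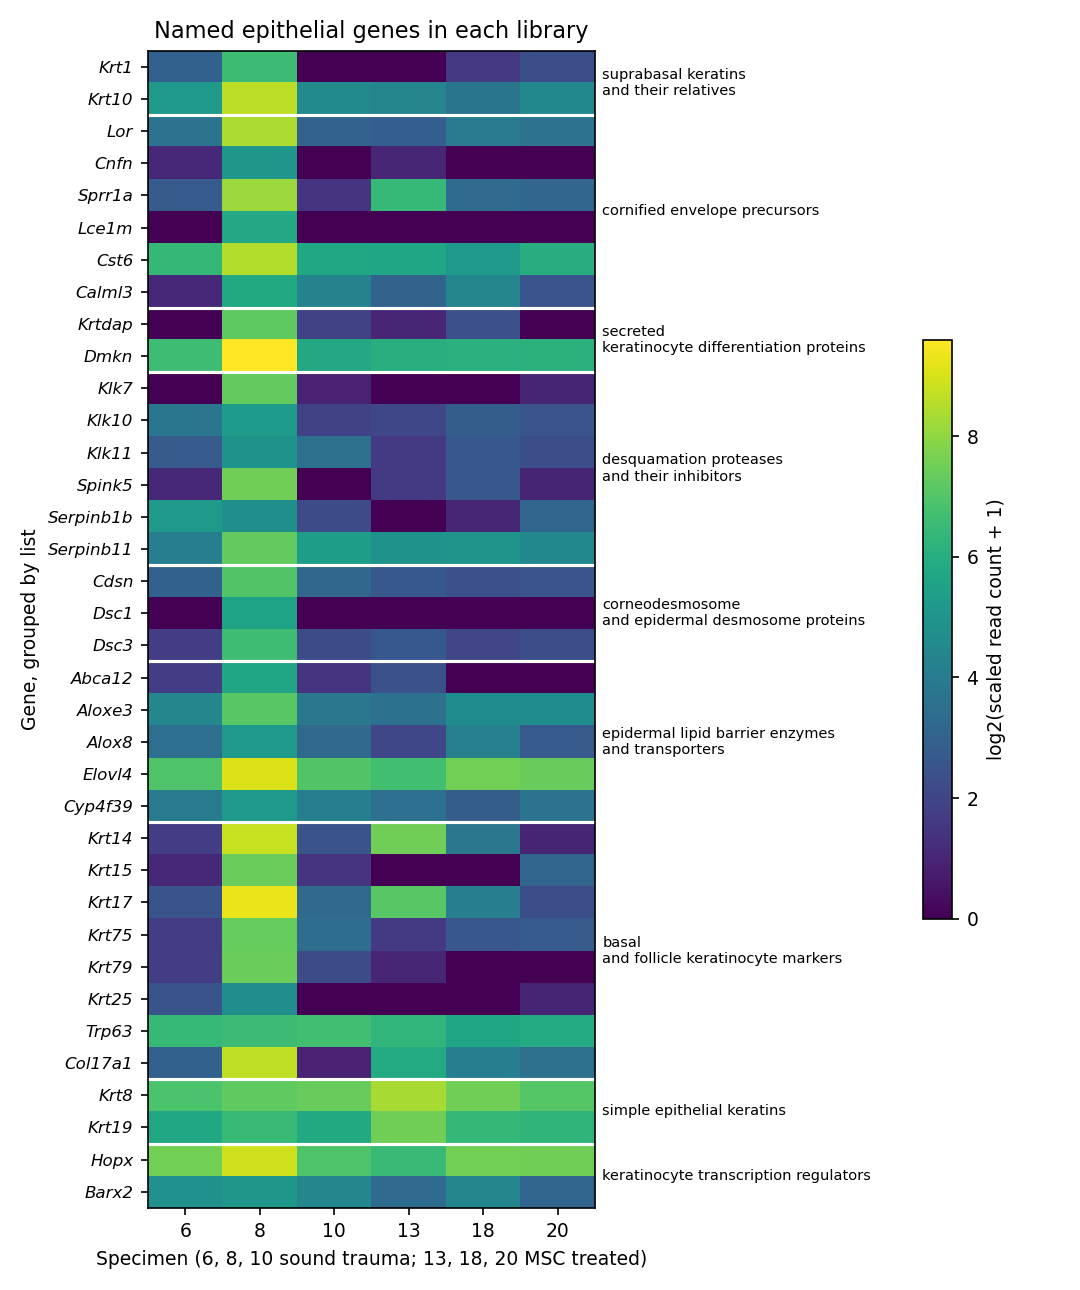
Level of the 36 named epithelial genes (y axis, grouped by list) in the 6 libraries (x axis, specimen number), with colour for log2(scaled read count + 1) from 0 upwards. The column of specimen 8 is the highest for 32 of the 36 genes, and specimen 13 is next for Krt14, Krt17, Sprr1a, Col17a1, Dsc3 and Abca12 and is the highest for Krt8 and Krt19.

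The basal and follicle keratinocyte genes (8 of 13 named) had a summed level of 2112 in specimen 8, 457 in MSC treated specimen 13 and down to 89.3 in the others. Krt14, the type I keratin of basal keratinocytes, had 2.32, 446 and 4.47 in the sound trauma group and 183, 13.3 and 0.971 in the MSC treated group. Krt17, a keratin of hair follicles and activated keratinocytes, had 4.64, 631 and 8.93 compared with 136, 16.3 and 3.88. Col17a1, the hemidesmosome collagen that anchors basal cells, had 6.95, 413 and 0.893 compared with 57.1, 16.3 and 10.7. These 3 genes were therefore high in specimen 8 and intermediate in specimen 13, and their log2 differences were -0.22, -0.54 and 0.31 with all libraries. Without specimen 8 they were 2.02 ± 2.46 (SE), 1.60 ± 1.84 and 2.55 ± 1.19 for Krt14, Krt17 and Col17a1. The values for Krt14 and Krt17 were set largely by specimen 13. For Col17a1, each MSC treated value lay above the 6.95 and 0.893 of the remaining sound trauma libraries. Trp63, the transcription factor of basal keratinocytes, did not follow Krt14, Krt17 and Col17a1. It had 84.6, 94.6 and 104 in the sound trauma group and 77.9, 49.0 and 59.2 in the MSC treated group. Krt15, Krt75 and Krt79, which mark basal and follicle cells, had 168, 162 and 172 in specimen 8 and at most 9.83 in any other library.

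In specimen 13, Krt14, Krt17, Col17a1 and Sprr1a (and, with 5 and 4 reads, Dsc3 and Abca12) had their next highest value after specimen 8, whereas Krt10, Lor and Klk7 did not. The other 5 named basal and follicle genes did not share this, with 0 reads of Krt15 and Krt25, 2 of Krt75 and 1 of Krt79 in specimen 13, and Sprr1a belongs to the envelope list. Shares of reads are given for 3 pairs that were picked because these values had been seen, so a gap between the libraries was fixed by the choice and is a description of 2 animals. Krt14 made up 52.8% of the summed Krt14 and Krt10 reads in specimen 8 (49.5% to 56.0%, Wilson) and 90.3% in specimen 13 (85.3% to 93.7%, 176 of 195 reads). Krt17 made up 61.2% of the Krt17 and Krt10 reads in specimen 8 and 87.3% in specimen 13 (81.1% to 91.7%). Sprr1a made up 45.7% of the Sprr1a and Lor reads in specimen 8 and 93.2% in specimen 13 (85.9% to 96.8%, 82 of 88 reads). Specimen 13 had no Klk7 read among 9930141 reads.

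**Figure D3:**
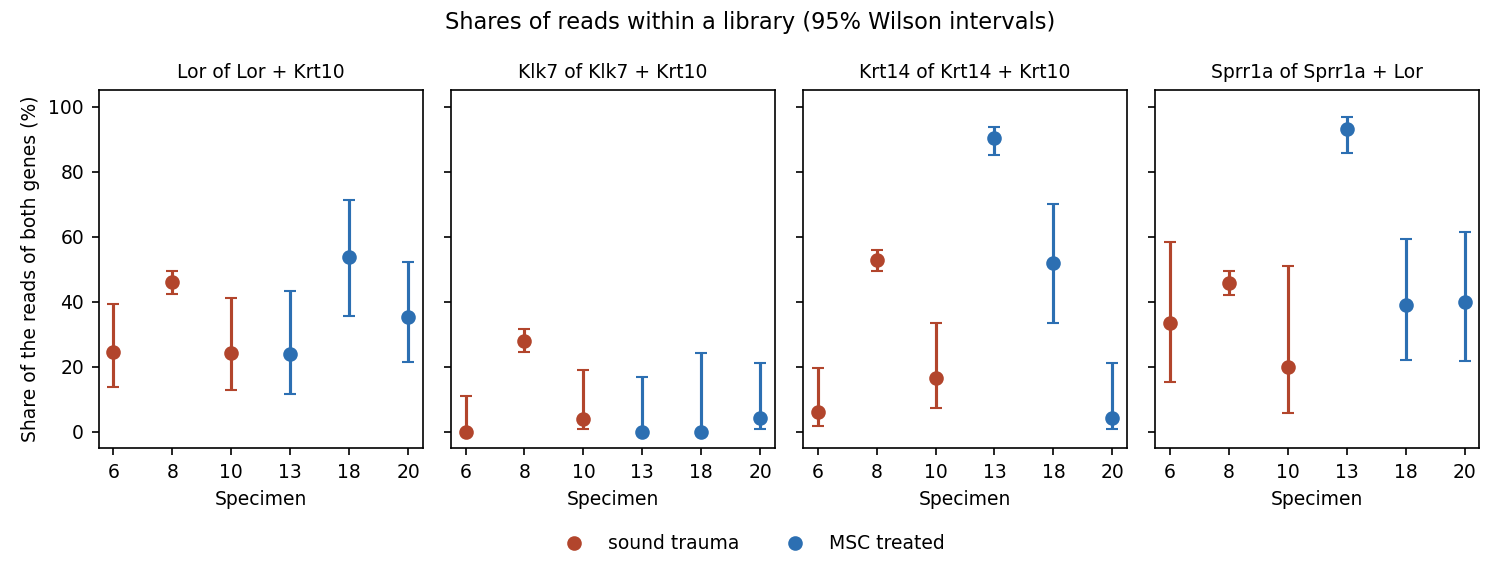
Share of reads (y axis, %) of the gene named first among the reads of both genes in each library (x axis, specimen number), for 4 pairs, with 95% Wilson intervals as bars and sound trauma in red and MSC treated in blue. Krt14 reaches 90.3% and Sprr1a 93.2% in specimen 13, and Klk7 reaches 27.9% of the Klk7 and Krt10 reads in specimen 8 and at most 4.35% elsewhere.

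The simple epithelial keratins had another pattern. Krt8 and Krt19, keratins of single-layered epithelia that cochlear supporting cells also carry, were both named as up-regulated. Krt8 had 116, 152 and 163 in the sound trauma group and 322, 182 and 132 in the MSC treated group. Krt19 had 53.3, 88.0 and 56.3 compared with 182, 82.7 and 77.7. Both were highest in specimen 13, and their level in specimen 8 lay within the range of the other 5 libraries. Of the keratinocyte regulators 2 of 8 were named. Hopx, a homeodomain protein of differentiating keratinocytes, had 187, 472 and 123 compared with 89.3, 189 and 182. Barx2, a homeobox factor of several epithelia, had 27.8, 32.5 and 20.5 compared with 9.35, 20.4 and 7.77, and it had no comparable peak in specimen 8.

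The genes lie in gene families that sit together on the chromosomes, with gene order taken from RefSeq (GRCm38.p6). Lor, Lce1m, Kprp, Crct1 and Sprr1a lie within 43 protein-coding genes on chromosome 3, the region known as the epidermal differentiation complex. Krt10, Krt14, Krt15, Krt17 and Krt25 lie within 62 genes of the type I keratin region on chromosome 11. Klk7, Klk10 and Klk11 lie within 5 genes on chromosome 7, and Krt1, Krt75 and Krt79 lie within 14 genes on chromosome 15. All named genes in these stretches come to 18, of which 17 were highest in specimen 8. The exception was Krt19 in the type I stretch, highest in specimen 13, as was Krt8, which lies within 5 genes of the type II stretch. The stretches were drawn around genes seen to be high in specimen 8, so the count describes them only. How reads shared between near-identical family members were assigned is not given in the sources used here.

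Of the 74 genes at least 8 times as high in specimen 8 as in every other library, 65 had a name and 15 of these were in the epithelial lists. Among the 50 outside the lists were further genes of cornifying epidermis, named after their values had been seen. Calm4, Kprp, Crct1 and Cyp2b19 had 81, 46, 45 and 33 reads in specimen 8 and 0 reads in all other libraries. Lgals7, which encodes the keratinocyte lectin galectin 7, had 140 reads in specimen 8 and 0 to 2 elsewhere. The 50 also held genes of the cerebellum. Cbln3 of granule cells had a scaled count of 5660 in specimen 8 compared with 615 in specimen 6 and 8.04 to 29.6 in the other 4. Car8 of Purkinje cells had 2652, compared with 190.1 in specimen 6 and 25.9 to 36.4 in the other 4. Slc1a6, also of Purkinje cells, had 685, compared with 23.2 in specimen 6 and 6.25 to 15.6 in the other 4. Specimen 6 was next in order for these 3 genes. For the 32 epithelial genes that peaked in specimen 8, the library next in order varied. It was specimen 6 for 8 genes (Krt10 among them) and specimen 18 for 8 (Lor among them). It was specimens 10 and 13 for 6 each and specimen 20 for 2 (Klk7 among them, with a single read). The remaining 2 had 0 reads elsewhere. Several of these places rest on few reads, such as 4 against 3 for Krtdap and 14 against 12 for Lor, and are a description only.

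Genes with a pattern like the mean of the 3 genes were ranked among those that passed the expression filter, which 19 of the 36 named epithelial genes, among them Krtdap, Spink5 and Krt79, did not. By Pearson's r on log2(scaled count + 1) over 6 libraries among 3526 named genes, the 15 most alike were Pitpnm1, Psd3, Homer3, Elmo2, Tiam1, Gas7, Rps6ka5, Ptch1, Dusp5, Soga1, Cpne9, Celf5, Ppp1r9b, Atp6v1c1 and Plppr4, with r from 0.998 to 0.990. The filter left most single-library epithelial genes out of this ranking, so it does not compare them with the 15. Of the named epithelial genes 17 passed the filter, Krt10 and Lor among them, and the 3 genes themselves were not ranked. None of the 15 was in an epithelial list. Pitpnm1 had 1139, 3036 and 1121 in the sound trauma group and 1058, 1121 and 1224 in the MSC treated group, which is a single high library and 5 nearly equal ones. Without specimen 8, r was -0.02 for Ppp1r9b and 0.61 to 0.92 for the others of the 15 genes. The remaining libraries were also part of the ranking that picked these genes. A single high library can by itself give a high r, as for Ppp1r9b, and 328 of 15968 tested genes reached an r of 0.95.

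Markers of other tissues also differed between the libraries. Only genes in the deposited lists carry a name, so these markers too were selected by the study on the same animals. Of the cochlear markers 7 were listed as up-regulated and 1 as down-regulated (Sox2, highest in specimen 8 at 185). All named blood cell markers were listed as up-regulated, and all named brain, muscle and pituitary markers as down-regulated. This selection favours lower or higher sound trauma values accordingly, so the levels are a description only. Of 20 cochlear markers 8 were named, and all 8 were detected in every library, including Otog and Otoa of the membranes over the sensory cells and Otof of hair cells. Their summed level was 2266 in specimen 8 and 2091 in specimen 6, compared with 3508 to 4958 in the other 4 libraries, and 6 of the 8 were lowest in specimen 8. The brain and choroid plexus markers (10 of 10 named) had a summed level of 34346 in specimen 8, 19646 in specimen 6 and 5873 to 9016 in the others, and 7 of the 10 were highest in specimen 8. The skeletal muscle markers (9 of 10 named) had 25603 in specimen 8 and 58930 to 684355 elsewhere, and 8 of the 9 were lowest in specimen 8. The pituitary hormone genes (7 of 7 named) were all highest in specimen 6, with a summed level of 297148 there and 3641 in specimen 8. The blood cell markers (3 of 10 named, Cd68, Elane and Mpo) had 10947 in specimen 8 and 8883 to 16928 elsewhere. The part of these tissues in the levels of Krt10, Lor and Klk7 was not tested.

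**Figure D4:**
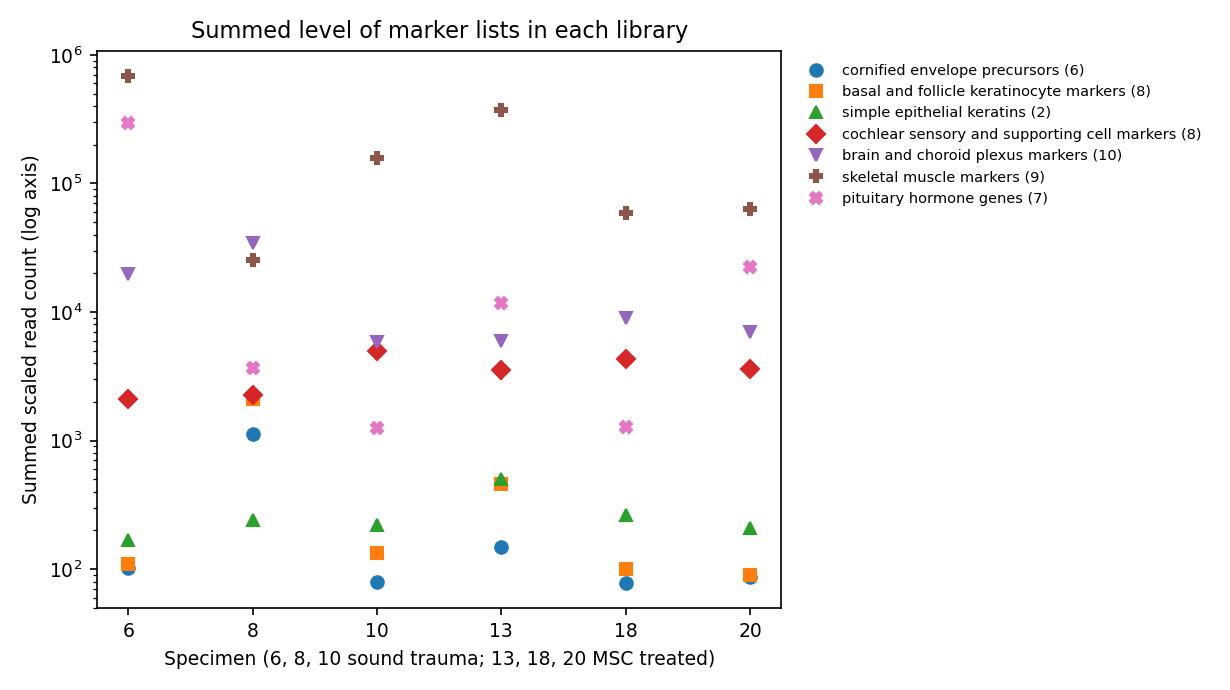
Summed scaled read count (y axis, log scale) of 7 marker lists in the 6 libraries (x axis, specimen number), with the number of named genes in brackets. The cornified envelope precursors stand at 1129 in specimen 8 and at 78.6 to 149 elsewhere, while the muscle and pituitary lists peak in specimen 6.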

How the data were processed

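Left cochlear RNA of 6 mice was sequenced, and samples were grouped by the treatment label. The authors aligned reads to the C57BL/6NJ genome and deposited a signal per gene, a read count multiplied by 1 factor per library. Every value (100%) was a whole multiple of that factor within 0.01 read, so reads were recovered. The authors also deposited lists of changed genes with the mean FPKM of each group, printed here as the authors' mean, and with an FDR and log2 fold change, which were not used. The counting tool and its use of strand are not given in the sources used here. Names came from these lists (3716 genes). All genes passing filterByExpr were tested by limma-trend 3.58.1 (R 4.3.3) on log2(scaled count + 1) with Benjamini-Hochberg adjustment, with edgeR 4.0.16 quasi-likelihood, limma-voom and DESeq2 1.42.0 on recovered reads as alternatives, and the scripts were tested on simulated data. Other scalings, pseudocounts, filters and left-out libraries were also tried. Intervals were computed with scipy 1.17.1, and a count of 3 was used as the floor of a zero. The labels do not say more of replicates than the specimen number, and p-values measure the spread between these samples.

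The genes named were Krt10, Lor and Klk7, the 4 genes with the largest mean scaled count of each epithelial list, and the 15 genes most alike in pattern. Krt15, Krt25, Krt75, Krt79, Klk10, Klk11, Lce1m, Cnfn and Abca12, and all genes outside the lists other than the 15, were named after their values had been seen. The 3 genes and all lists were chosen with earlier results of these data known. RefSeq promoters matched 3 of 3 genes, and coordinates of the C57BL/6NJ build were not used.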

Additional observations from a re-analysis of the deposited data

How the results depend on the processing

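No paired analysis was possible because the 2 groups share no specimen number. The number of genes called by limma was 0 with all libraries and ranged from 0 to 1 when each library was left out, with 1 gene called without sound trauma specimen 10, where 1147 genes were lower and 1397 higher at an unadjusted p under 0.05, compared with 107 and 269 with all libraries. It was 0 under the other tests, scalings, pseudocounts and filters, and unadjusted counts moved (88 lower and 251 higher with at least 10 reads, and 299 lower and 427 higher without a filter). When each library was left out, the log2 difference ranged from -2.73 to -0.68 for Krt10, from -2.55 to 0.14 for Lor and from -3.78 to -0.13 for Klk7, and the value nearest to or above 0 was the one without specimen 8 in each case. Pseudocounts of 0.1 and 10 gave -1.98 and -1.62 for Krt10, -1.58 and -1.31 for Lor, and -3.50 and -1.34 for Klk7, which had 1 read or none in 5 libraries. Other scalings moved the differences to between -1.95 and -1.87 for Krt10, between -1.56 and -1.48 for Lor and between -2.42 and -2.39 for Klk7. The count of 32 of 34 epithelial genes with a lower mean in MSC treated cochleae became 20 without specimen 8, an alternative chosen after seeing the data. With 3 libraries per group, and 12 to 31 Krt10 reads in each library other than specimen 8, differences among those 5 libraries were not detectable beyond counting error for neighbouring values.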
